A study of Mus musculus with 7 samples.

Results

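Plantaris muscle overloaded for 1 week was compared between tamoxifen-treated and vehicle-treated Pax7-DTA mice on 5 of the 7 arrays of the series. The arrays were chosen by their titles, which give 1 week after surgery for 3 arrays of tamoxifen-treated mice (1 female, 2 male) and 2 arrays of vehicle-treated mice (1 female, 1 male). The 2 sham arrays were not used. All mice were 4 months old and carried the same alleles, Pax7-CreER and Rosa26-DTA, so the vehicle mice differ from the tamoxifen mice in what was given. In this cross a tamoxifen-activated Cre recombinase, made under the control of Pax7, switches on the A chain of diphtheria toxin at the Rosa26 locus and kills the cells that express Pax7. No mice without the toxin allele received tamoxifen among these arrays, so effects of the drug and of the loss of cells cannot be told apart. Overload was produced by synergist ablation, the surgical removal of its synergist muscles in the hindlimb. The sample titles read as single mice whereas the design text describes a pool of muscles, so the number of animals behind an array is uncertain, and the p-values measure only the spread between these arrays, which may be technical in part.

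Satellite cells are the stem cells of skeletal muscle. They lie between a fibre and its basement membrane and are marked by the transcription factor Pax7. Under overload they divide, pass through a myoblast stage driven by Myf5, Myod1 and Myog, and fuse with growing fibres by means of the membrane proteins Mymk and Mymx. They share the interstitial space of the muscle with fibroblasts, fibro-adipogenic progenitors, macrophages, endothelial cells and nerve, and they exchange growth factors and matrix signals with them. Depleting them before overload asks which genes of the growing muscle depend on their presence.

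Levels are given as log2(signal + 1), where a step of 1 is a doubling of the signal, and are always listed in the order vehicle female, vehicle male, tamoxifen female, tamoxifen male 1 and tamoxifen male 2. A difference is tamoxifen minus vehicle on this log2 scale, adjusted for sex, with the standard error of limma. Genes were called at an adjusted p under 0.05 over 18193 genes. A background level of log2 5.93 (a signal of 59.9) was taken from 75 receptor genes of smell and taste, and 12446 genes (68.4%) lay above it on average. Sex labels matched the arrays: Xist lay at 13.30 and 13.52 on the female arrays and at 5.52 to 7.06 on the male arrays, and the Y-linked genes Eif2s3y and Kdm5d lay below background on the female arrays only. The sex term called 5 genes higher on female arrays (0.0275% of 18193) and 4 lower (0.022%), and 883 (4.85%) reached an unadjusted p under 0.05. The tissue label matched too, with the fast myosin gene Myh1 between 14.96 and 15.37 and the fast fibre gene Actn3 between 14.61 and 15.04. Every array had a trimmed mean signal of 500, while the median signal was 105.8 and 108.6 on the vehicle arrays and 114.5 to 127.7 on the tamoxifen arrays. Tamoxifen male 2 had the highest median signal and the highest ratio of 3' to 5' signal for Gapdh (0.906, others 0.827 to 0.857) and for actin (1.202, others 1.103 to 1.142). It was also the highest tamoxifen array for 1744 of the 3071 genes that lay above vehicle on all 3 tamoxifen arrays, and the lowest for 1328 of the 2293 genes that lay below. Its part in the results was not tested beyond leaving it out.

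A single gene passed the test. Mmp13, which encodes the collagenase that cuts fibrillar collagen, rose in tamoxifen-treated muscle. It stood at 9.16, 8.83, 11.22, 10.78 and 10.51. Its levels on the 3 tamoxifen arrays all lay more than a doubling above those on the vehicle arrays, in both sexes. The difference was 1.92 ± 0.16 (95% confidence interval 1.56 to 2.29), a 3.78-fold change (limma, adjusted p = 0.0497). The call is fragile: it was lost in 15 of 17 other analyses, although the difference stayed between 1.77 and 2.06, and it stood at an adjusted p of 0.001 without tamoxifen male 1. The share of genes called higher was 0.0055% (1 of 18193) and the share called lower was 0% (0 of 18193). At an unadjusted p under 0.05, 1382 genes (7.6%) were higher and 560 (3.08%) lower on tamoxifen arrays, and an ordinary linear model without moderated variances called 0 in either direction. All 3 tamoxifen arrays lay above both vehicle arrays for 3071 genes (16.9%) and below them for 2293 (12.6%). These shares are the background for the counts in every gene group below. The median difference of all genes was 0.03, and 52.8% of genes had a positive one.

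**Figure D1:**
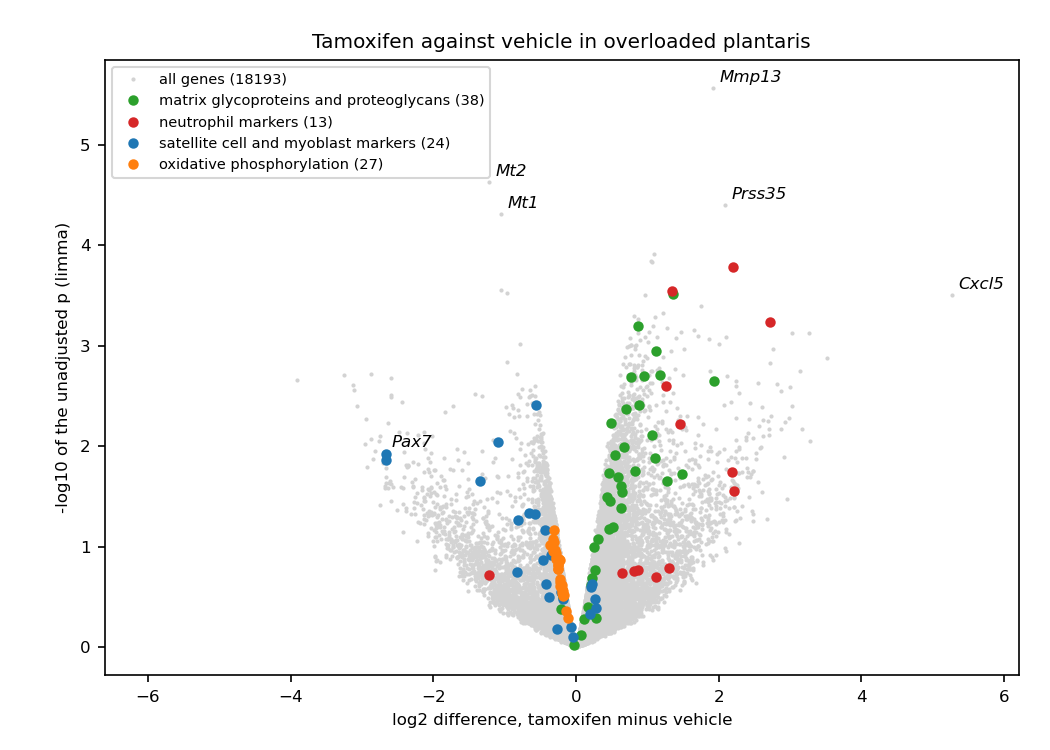
Difference between tamoxifen and vehicle in overloaded plantaris (x axis, log2) against the unadjusted limma p (y axis, -log10) for 18193 genes, with the members of 4 gene lists coloured. Mmp13 stands highest, the matrix genes lie mostly to the right, the respiratory chain genes form a narrow band left of 0, and Pax7 lies far to the left at a larger p.

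The number of calls depended on 1 array. Without tamoxifen male 1, 210 genes were called higher and 26 lower, while leaving out any other single array left 0 in each direction. All 236 of these genes had the same sign in the fit of 5 arrays, and 197 of them did not overlap between the groups on 5 arrays. Over all 18193 genes, 16.9% lay above and 12.6% below vehicle on all tamoxifen arrays. The 236 genes were selected on arrays that also enter the fit of 5, so neither count is separate support. The 236 included Pax7 (-3.09, limma adjusted p = 0.0369), both metallothioneins, Igf2, Cthrc1, S100a8, S100a9 and Sfrp2. In the results that follow, no gene other than Mmp13 passed the test on all 5 arrays, and the limma adjusted p of every other gene named was 0.216 or above. Counts at an unadjusted p under 0.05 also depend on single arrays: 1942 genes reached that p on all 5 arrays, 927 without the vehicle male, which leaves the comparison of the female arrays, and 1556 to 2667 without any other array. Values are therefore given as measured, array by array where they matter most. A fit without the vehicle male returns the difference between the female arrays and is no check separate from it.

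The smallest p-values on the lower side belonged to the metallothionein genes Mt2 and Mt1, neighbours in the genome that encode small zinc- and copper-binding proteins. The promoters of the leading gene on the higher side, Mmp13, and of this pair are shown, as the 250 bases before the annotated start of each gene on the + strand (RefSeq, GRCm38.p6): Mmp13 at chr9:7272264-7272513, Mt1 at chr8:94178839-94179088 and Mt2 at chr8:94172368-94172617. Capitals mark the AP-1 motif TGANTCA in Mmp13, the binding motif of Fos and Jun proteins, and the core of the metal response element, TGCACNC or TGCGCNC, in Mt1 and Mt2. Both strands were searched.
Mmp13: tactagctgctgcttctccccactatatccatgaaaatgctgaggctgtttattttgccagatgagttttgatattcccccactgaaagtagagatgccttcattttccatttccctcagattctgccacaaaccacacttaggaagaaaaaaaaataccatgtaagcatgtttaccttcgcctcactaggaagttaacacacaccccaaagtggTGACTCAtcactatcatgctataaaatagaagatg
Mt1: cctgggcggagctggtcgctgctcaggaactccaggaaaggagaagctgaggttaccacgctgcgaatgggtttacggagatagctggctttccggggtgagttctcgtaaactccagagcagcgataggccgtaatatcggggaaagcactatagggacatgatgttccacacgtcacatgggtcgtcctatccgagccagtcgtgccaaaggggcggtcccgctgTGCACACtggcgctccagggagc
Mt2: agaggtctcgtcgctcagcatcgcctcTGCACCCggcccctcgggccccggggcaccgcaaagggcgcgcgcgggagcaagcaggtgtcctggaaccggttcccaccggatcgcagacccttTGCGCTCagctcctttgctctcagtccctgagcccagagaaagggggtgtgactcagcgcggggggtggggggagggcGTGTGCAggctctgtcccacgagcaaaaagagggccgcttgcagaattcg
The AP-1 motif of Mmp13 starts at -35 from the gene start, and 6.75% of 32851 promoters of the same length hold at least 1. The metal response element core was found once in Mt1, at -23, and at 3 places in Mt2, from -223 to -50. At least 1 core is held by 21.4% of promoters and at least 3 by 1.26%. Mt2 also holds 1 AP-1 motif, at -79, which is left in lower case. A match describes letters and is not evidence of binding.

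Mt2 stood at 12.67, 12.67, 11.48, 11.52 and 11.34. The vehicle arrays are nearly equal, and the 3 tamoxifen arrays lie more than a doubling below them. The difference was -1.22 ± 0.13 (limma adjusted p = 0.216). Mt1 stood at 12.50, 12.30, 11.39, 11.32 and 11.26, a difference of -1.05 ± 0.13 (limma adjusted p = 0.224). The groups do not overlap for either gene, and the female and male arrays differ from their controls by similar amounts. Under leaving out tamoxifen male 1 the limma adjusted p was 0.00508 for Mt2 and 0.00816 for Mt1. Of the 18 genes in the list of metallothionein, antioxidant and glucocorticoid target genes, 1 was higher and 5 lower at an unadjusted p under 0.05, and the list's median was -0.08. Hmox1, the haem-degrading oxygenase, lay on the other side at 6.77, 7.79, 8.33, 8.53 and 10.07 (difference 1.53 ± 0.41), and Klf9, a glucocorticoid-induced transcription factor, differed by -0.59 ± 0.22.

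On the higher side 9 further genes followed Mmp13 by the size of p. Prss35, a gene of the trypsin-like serine protease family, stood at 7.04, 6.57, 8.96, 8.54 and 9.04 (difference 2.09 ± 0.25). Even the closest arrays of the groups lie more than a doubling apart. Cthrc1, a secreted protein made by fibroblasts that lay down collagen, stood at 11.97, 11.43, 13.09, 12.63 and 13.30 (difference 1.36 ± 0.22). The vehicle arrays do not reach the tamoxifen arrays for this gene. The calprotectin gene S100a9, a marker of neutrophils, stood at 5.98, 6.76, 7.88, 8.74 and 9.62 (difference 2.20 ± 0.32), and its partner S100a8 differed by 1.35 ± 0.21. Both are lowest in the vehicle female and highest in tamoxifen male 2. Differences near 1 were measured for Ccl8, a chemokine that attracts monocytes (1.09 ± 0.15), Spon1, a matrix protein (1.05 ± 0.15), Rgs3, a regulator of G protein signalling (1.06 ± 0.15), and Fibin (0.97 ± 0.16). Cxcl5, a chemokine that attracts neutrophils, lay below background on both vehicle arrays (0.76 and 2.61) and at 5.25, 7.09 and 9.81 on the tamoxifen arrays, which makes it at least 2.74-fold higher.

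On the lower side after the metallothioneins came Ank3, which encodes the membrane scaffold ankyrin-G, at 12.26, 12.24, 11.06, 11.50 and 11.08 (difference -1.05 ± 0.17). The vehicle arrays agree closely and stand above all tamoxifen arrays. Other probe sets of Ank3 gave -0.60 to 0.40. Arnt, the dimerization partner of the hypoxia-inducible factors, differed by -0.97 ± 0.16 on the probe set used, but its 4 other probe sets gave 0.01 to 0.19, so the gene's direction depends on the probe set. Chrnb1, a subunit of the acetylcholine receptor of the neuromuscular junction, differed by -0.79 ± 0.15, Zfp568 by -0.82 ± 0.18 and Kif5b, a kinesin motor of intracellular transport, by -0.57 ± 0.13. The remaining probe sets of Kif5b gave -0.44 to 0.22. Lix1 and A930017K11Rik lay at or just above background on the vehicle arrays and below it on every tamoxifen array, which makes them at least 1.12-fold and at least 1.06-fold lower.

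**Figure D2:**
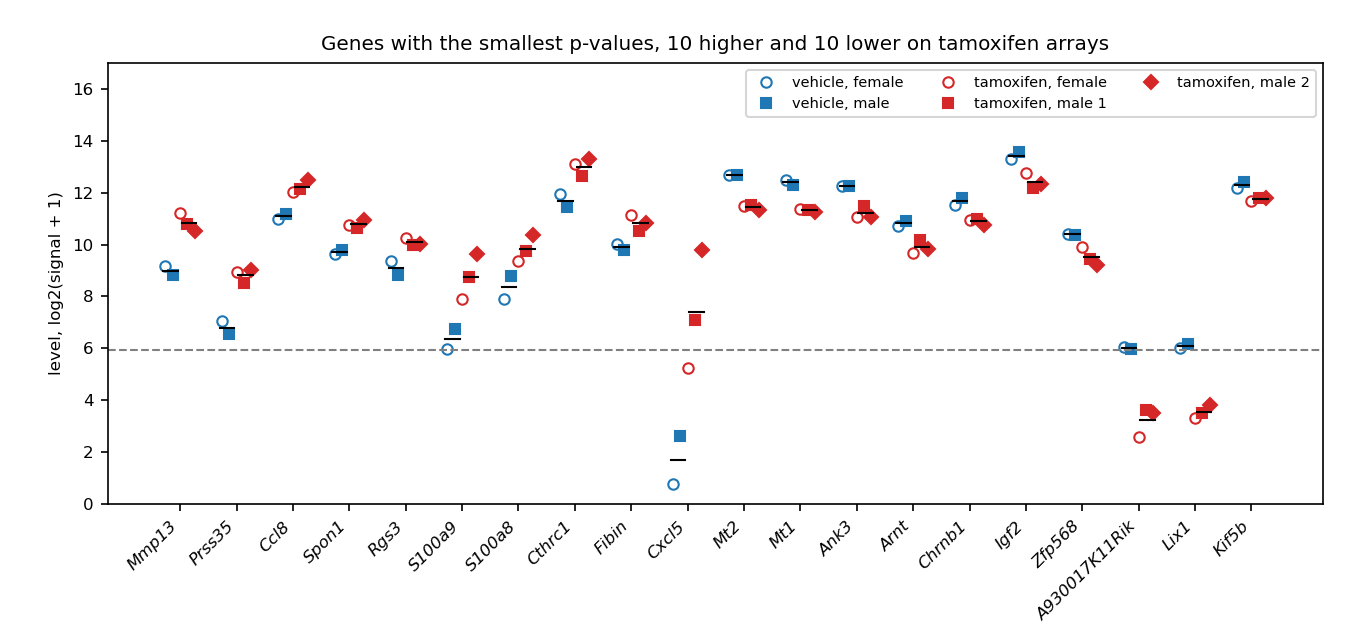
Level of the 10 genes with the smallest p among those higher on all tamoxifen arrays and the 10 among those lower (y axis, log2(signal + 1)), 1 point per array, with black lines at plain group means and a dashed line at the background level of 5.93. Mmp13 is the only gene that passed the test, Mt1 and Mt2 show tight groups, and Cxcl5 exceeds background on tamoxifen male 1 and male 2 only.

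Satellite cell genes were lower on tamoxifen arrays, though none passed the test. Pax7 itself stood at 8.10, 8.45, 6.92, 5.88 and 3.46. The groups do not overlap. The tamoxifen female stayed above background, tamoxifen male 1 lay at it and male 2 below it, so the 3 tamoxifen arrays spread over more than 3 log2 units. The difference was -2.67 ± 0.81 (95% confidence interval -4.55 to -0.78, limma adjusted p = 0.4), and was -1.18 between the female arrays and -3.78 between the male arrays. The second probe set of Pax7 gave -1.19. In bulk muscle, fewer satellite cells and less Pax7 RNA per cell cannot be told apart. Calcr, the calcitonin receptor of quiescent satellite cells, lay just above background on the vehicle arrays (6.36 and 6.51) and below it on the tamoxifen arrays (4.44, 2.01 and 4.55), which makes it at least 1.42-fold lower.

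Myf5, the earliest myogenic factor, stood at 8.10, 9.31, 8.004, 7.32 and 6.70 (difference -1.35 ± 0.47). The female arrays are nearly alike, -0.10 apart, while the male arrays are -2.29 apart. The receptor Fgfr4 stood at 7.72, 8.27, 7.16, 6.90 and 6.65 (difference -1.09 ± 0.32), with no overlap between groups. Of the 24 genes in the list of satellite cell and myoblast markers, 19 had a negative difference, 7 were lower and 0 higher at an unadjusted p under 0.05 (3.08% of all genes were lower by that rule), and 8 lay below vehicle on all tamoxifen arrays (12.6% of all genes). The median was -0.40, against 0.03 for all genes, and was -0.08 between female arrays and -0.58 between male arrays. Members outside the naming rule, chosen after their values were seen, filled in the range. The adhesion protein genes Cdh15 and Ncam1 differed by -0.58 ± 0.24 and -0.65, the laminin receptor Dag1 by -0.56 ± 0.14, the surface receptor Megf10 by -0.82 and the paternally expressed Peg3 by -0.46. Dag1, which fibres also express, was nearly the same in both sexes, while Cdh15, Ncam1, Megf10 and Peg3 had values well below 0 between the male arrays and close to or above 0 between the female arrays. Other members stood near 0 or above it, such as Sdc4 (-0.04), Vcam1 (0.20) and Cxcr4 (0.28). Between the female arrays alone, which is all that the fit without the vehicle male compares, 15 of 24 had a negative difference. Without tamoxifen male 2, 4 members were lower at an unadjusted p under 0.05.

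Genes of myoblast differentiation and fusion split by sex. Myod1 stood at 9.04, 10.23, 9.60, 8.93 and 9.18. The vehicle male is the highest array and the vehicle female lies within the tamoxifen range, so the groups overlap. The difference was -0.43 ± 0.35 over the 5 arrays, 0.56 between female arrays and -1.17 between male arrays. Myog, which drives terminal differentiation, stood at 10.33, 11.31, 10.69, 9.76 and 9.93, with 0.36 between female and -1.46 between male arrays. Mymk stood at 9.36, 10.88, 10.12, 9.24 and 9.26 and Mymx at 6.59, 10.27, 9.27, 8.36 and 8.76. For both fusion genes the vehicle male is the highest array, and for Mymx the vehicle female is the lowest. The fetal acetylcholine receptor subunit Chrng was below background on the vehicle female alone (2.81) and between 7.62 and 9.16 on the other 4 arrays. Across the list of 27 genes the median was -0.25, with 0.09 between female and -0.39 between male arrays, and 2 were higher and 3 lower at an unadjusted p under 0.05. The treatment-by-sex term called 0 genes in limma (0% of 18193) and 817 (4.49%) reached an unadjusted p under 0.05, so these differences between the sexes are a description of 1 array against 1 and 2 arrays against 1.

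Myf6, a myogenic factor of mature fibres, stood at 12.74, 12.65, 12.26, 12.03 and 11.81 (difference -0.62 ± 0.15). It was lower in both sexes, and the groups do not overlap. The cell cycle inhibitor Cdkn1c differed by -0.68 ± 0.26, while N-cadherin (Cdh2) differed by 0.88 ± 0.31 in the opposite direction. Of the 13 embryonic and neonatal sarcomere genes, 11 had a negative difference and 3 were lower at an unadjusted p under 0.05, with a median of -0.33. Embryonic myosin, Myh3, stood at 13.73, 13.28, 13.29, 12.21 and 12.36 (difference -0.75 ± 0.17). The tamoxifen female was level with the vehicle male, and both tamoxifen males lay about 1 log2 unit lower. Neonatal myosin, Myh8, stood at 12.40, 13.24, 12.34, 11.30 and 11.23 (difference -1.16 ± 0.37), and slow troponin I, Tnni1, at 13.30, 13.19, 13.01, 12.38 and 12.06 (difference -0.67 ± 0.20). For both genes all tamoxifen arrays lie below both vehicle arrays, and the gap is wider between males. Mybph and Actc1 overlapped between the groups, at -0.63 ± 0.36 and -0.46 ± 0.23.

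**Figure D3:**
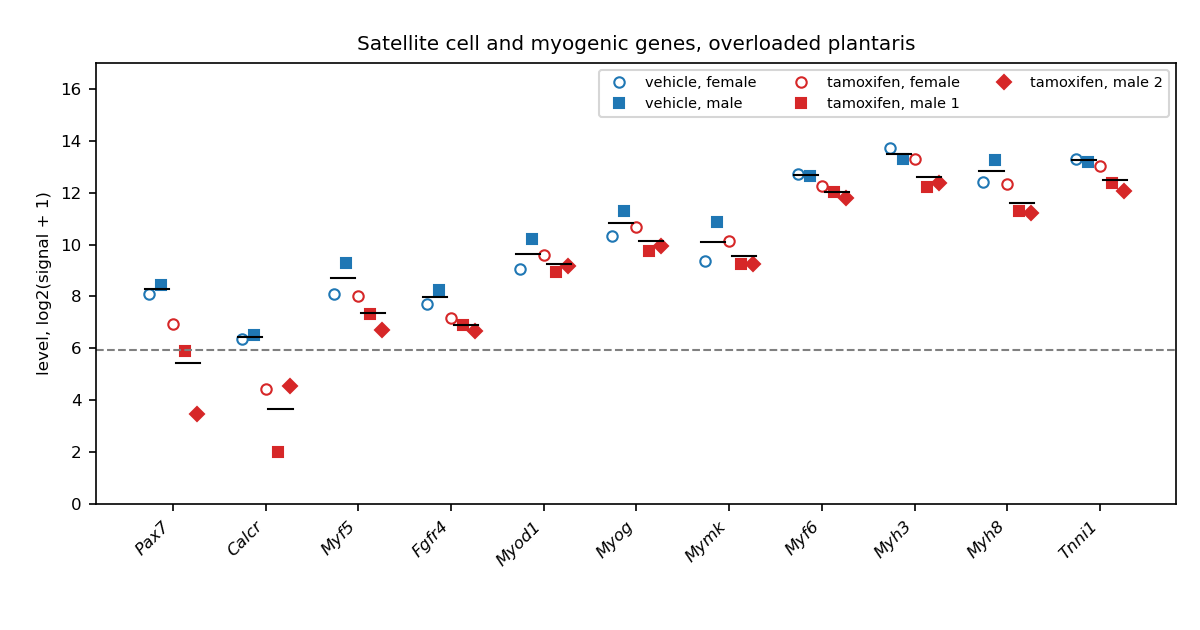
Level of 11 satellite cell and myogenic genes (y axis, log2(signal + 1)), 1 point per array, with black lines at plain group means and a dashed line at the background level of 5.93. Pax7 and Calcr reach or cross the background on tamoxifen male arrays, the tamoxifen female lies nearest to the vehicle arrays for Pax7, Myf5 and Myh3, and the vehicle male is the highest array for Myod1, Myog and Mymk.

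Adult fibre genes differed by small amounts. All 16 fast fibre genes had a negative difference and 13 lay below vehicle on every tamoxifen array (12.6% of all genes). However, only 1 of the 16 was lower at an unadjusted p under 0.05. The median was -0.21, and it was -0.05 after quantile normalization. Myh1 differed by -0.23 ± 0.18, Actn3 by -0.23 ± 0.18 and the calcium-binding Casq1 by -0.24 ± 0.17. Mylk2, the myosin light chain kinase of fast fibres, differed by -0.52 ± 0.22. Among 14 slow fibre genes the values spread more widely. Slow troponin T, Tnnt1, stood at 12.998, 12.94, 11.98, 11.96 and 10.83 (difference -1.32 ± 0.31), with no overlap, and the slow calcium pump Atp2a2 differed by -0.73 ± 0.27. Slow myosin heavy chain, Myh7, overlapped between the groups at 11.66, 9.63, 11.54, 11.81 and 9.48 (difference 0.53 ± 0.60), and the light chain Myl3 ranged from 7.34 on the vehicle male to 11.36 on the vehicle female. The array-to-array range of Myh7 and Myl3 exceeds the difference between treatments.

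Of 14 genes of the neuromuscular junction and denervation, 1 was higher and 1 lower at an unadjusted p under 0.05. Besides Chrnb1, the receptor-clustering protein gene Rapsn stood at 8.25, 8.68, 8.03, 8.07 and 7.65 (difference -0.57 ± 0.25). Runx1, a transcription factor induced by denervation, lay the other way at 9.40, 9.84, 10.51, 9.84 and 10.27 (difference 0.60 ± 0.23). The list's median was -0.25, from 0.28 between female arrays to -0.60 between male arrays. Of 14 sarcomere and Z-disc genes that respond to load, 0 reached an unadjusted p under 0.05, with a median of -0.20. Xirp1, a marker of loaded and injured fibres, overlapped at 12.77, 11.98, 11.55, 12.94 and 11.68, and Csrp3, a mechanical sensor of the Z-disc, differed by -0.32 ± 0.20.

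Matrix genes lay higher on tamoxifen arrays over most of their lists. The main fibrillar collagens, Col1a1 and Col3a1, differed little on the probe sets used. Of 24 collagen chains, 23 had a positive difference, 11 were higher and 0 lower at an unadjusted p under 0.05 (7.6% of all genes were higher by that rule), and 12 lay above vehicle on all tamoxifen arrays (16.9% of all genes). The median was 0.36, with 0.20 between female and 0.55 between male arrays. Between the female arrays alone, 15 of the 24 had a positive difference. Col1a1 stood at 14.58, 14.21, 14.57, 14.62 and 14.49 (difference 0.19 ± 0.18, 95% confidence interval -0.22 to 0.60). Col3a1 stood at 15.06, 15.06, 15.07, 15.13 and 14.99 (difference 0.00 ± 0.18). These chains make up most fibrillar collagen, and their arrays overlap, although a dimmer probe set of Col3a1 gave 0.44 (limma unadjusted p = 0.0391). The larger differences were in chains that regulate fibrils or are rarer. Col12a1, which sits on fibril surfaces, stood at 12.07, 11.14, 12.55, 12.35 and 13.16 (difference 1.13 ± 0.31). Col11a1, which starts fibrils, stood at 10.98, 9.55, 11.39, 11.20 and 11.55 (difference 1.22 ± 0.30). In both cases the vehicle male was the lowest array and the vehicle female lay close to the tamoxifen range. Col8a2 stood at 9.60, 8.82, 10.17, 10.05 and 10.44 (difference 1.06 ± 0.23) and Col18a1, a basement membrane collagen, at 9.73, 9.66, 10.43, 10.31 and 11.02 (difference 0.87 ± 0.22). Col2a1, the cartilage collagen, was 4.11 on the vehicle male, below background, and 6.92 to 7.76 elsewhere.

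Among 38 matrix glycoproteins and proteoglycans, 35 had a positive difference, and 24 were higher and 0 lower at an unadjusted p under 0.05. All tamoxifen arrays lay above vehicle for 24 members (16.9% of all genes). The median was 0.56, with 0.28 between female arrays and 0.76 between male arrays. Of these differences, 32 were positive between the female arrays alone. Tenascin-N (Tnn) stood at 7.72, 6.72, 8.42, 9.51 and 9.62 (difference 1.93 ± 0.43). The 2 tamoxifen males lie about 1 log2 unit above the tamoxifen female and nearly 3 above the vehicle male. Emilin1, a glycoprotein of elastic fibres, stood at 9.09, 8.57, 9.72, 9.90 and 10.40 (difference 1.17 ± 0.25). Acan, the proteoglycan of cartilage and tendon, differed by 1.48 ± 0.50, and Thbs1, an activator of latent TGF-beta, by 1.27 ± 0.44 with overlapping groups. Of 14 basement membrane genes, 3 were higher, led by the laminin chain Lamb1 (0.59 ± 0.15). Their median was 0.18, and it was -0.04 between the female arrays alone.

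Genes that process collagen lay higher as well. Of 19, 10 were higher and 0 lower at an unadjusted p under 0.05. The median was 0.42, and it was 0.22 between the female arrays alone. Lox, which crosslinks collagen, stood at 12.86, 12.29, 13.26, 12.98 and 13.42 (difference 0.69 ± 0.19). Serpinh1, the collagen chaperone, differed by 0.61 ± 0.16, and the prolyl hydroxylase P4ha3 by 0.93 ± 0.28. None of these overlaps between the groups. Of 27 matrix proteases and inhibitors, 13 were higher and 1 lower at an unadjusted p under 0.05, with Mmp13 the only one called. The list's median was 0.54, and it was 0.33 between the female arrays alone. Mmp9, a gelatinase made mainly by neutrophils and macrophages, stood at 5.94, 6.72, 6.84, 8.68 and 11.07 (difference 2.19 ± 0.73). Its value rests on tamoxifen male 2 more than on the others, and the tamoxifen female exceeds the vehicle male only slightly. Mmp23 differed by 1.22 ± 0.25 and the inhibitor Timp1 by 0.94 ± 0.34, while the inhibitor Timp4 lay at 10.27, 8.65, 8.53, 8.77 and 8.01 (difference -0.90 ± 0.36), with the vehicle female far above the rest.

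Marker genes of the cells that make matrix were measured beside these lists. Of 25 fibroblast and fibro-adipogenic progenitor markers, 7 were higher and 0 lower at an unadjusted p under 0.05, with a median of 0.30. The female arrays alone gave 16 positive and 9 negative differences, with a median of 0.14. The mean level of this list was 10.19 and 9.82 on the vehicle arrays and 10.23 to 10.39 on the tamoxifen arrays. Cxcl12, a chemokine of stromal cells, stood at 11.54, 11.53, 12.16, 12.49 and 12.78 (difference 0.90 ± 0.17). Pdgfrb, the growth factor receptor of pericytes and fibroblasts, stood at 11.29, 11.32, 11.85, 11.82 and 12.29 (difference 0.66 ± 0.17). The vehicle arrays are nearly equal for both and stand below every tamoxifen array. Twist1 and Tcf7l2, transcription factors of muscle connective tissue, differed by 0.86 ± 0.27 and 0.66 ± 0.20. All 13 tendon cell markers had a positive difference, and 7 were higher at an unadjusted p under 0.05. Only 2 lay above vehicle on all tamoxifen arrays (16.9% of all genes). Once the vehicle male was left out, 10 had a positive difference, 2 were higher and the median was 0.17 in place of 0.58. For Tnmd, a membrane protein of tendon cells, the arrays stood at 13.27, 12.13, 13.65, 13.26 and 13.23. The vehicle male is the outlying array there, and its mean tendon level of 9.94 compares with 10.60 to 11.14 on the other 4. How much of the matrix difference goes with tendon or fibroblast content was not tested.

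**Figure D4:**
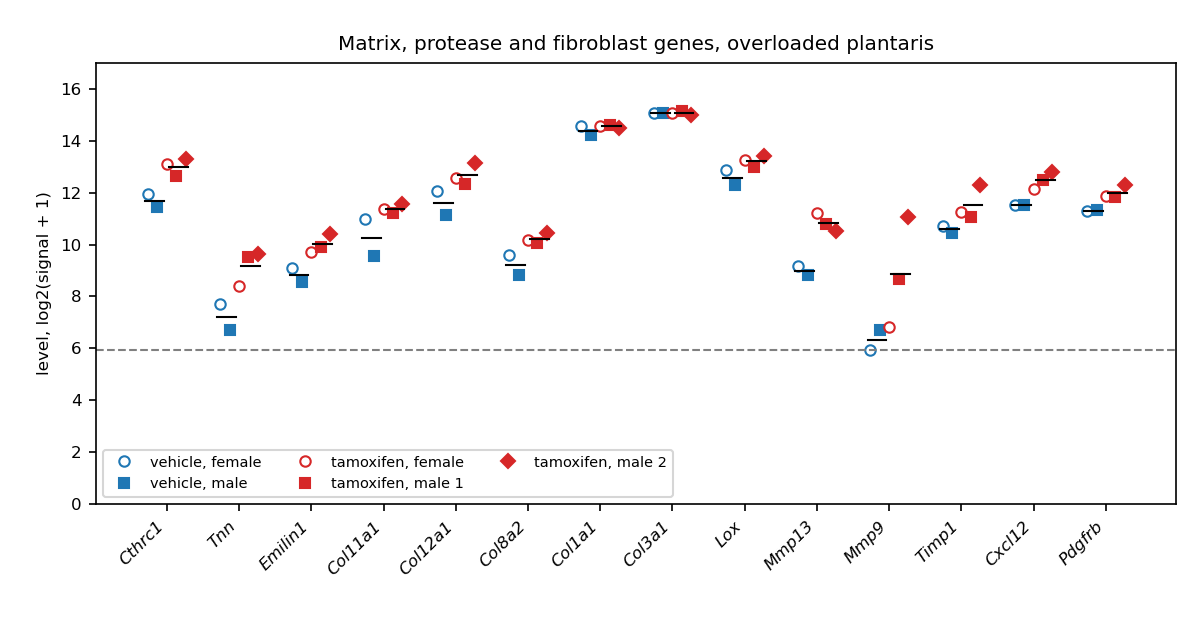
Level of 14 matrix, protease and fibroblast genes (y axis, log2(signal + 1)), 1 point per array, with black lines at plain group means and a dashed line at the background level of 5.93. Cthrc1, Emilin1, Col8a2, Lox, Mmp13, Cxcl12 and Pdgfrb separate by treatment, while Col1a1 and Col3a1 stand at nearly the same level on all arrays and Mmp9 spreads from 6.84 to 11.07 among tamoxifen arrays.

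Immune genes lay higher on tamoxifen arrays, and the neutrophil list had the largest median of the 42 lists. Of 13 neutrophil markers, 12 had a positive difference, and 7 were higher and 0 lower at an unadjusted p under 0.05. All tamoxifen arrays lay above vehicle for 7 markers (16.9% of all genes). The median was 1.30, or 0.81 when levels below background were raised to it, with 0.71 between female arrays and 2.01 between male arrays. Between the female arrays 10 of the 13 differences were positive. Slpi, a leukocyte protease inhibitor, was below background on both vehicle arrays (4.70 and 5.79) and stood at 7.96, 7.39 and 8.82 on the tamoxifen arrays, at least 4.37-fold higher. Lcn2, an iron-trapping protein of neutrophil granules, stood at 7.06, 6.39, 7.78, 7.99 and 8.81 (difference 1.46 ± 0.39). Cxcr2, the neutrophil chemokine receptor, and Elane, neutrophil elastase, each exceeded background on 1 array only, and Mmp8, the neutrophil collagenase, on 0 arrays. Cxcr2 and Mmp8 were named after their values were seen, as was the growth factor receptor Csf3r, which differed by 1.26 with no overlap. Of the leading members S100a8, S100a9, Slpi and Lcn2 are also made by other cells, and the neutrophil-specific Elane and Mmp8 lay at or below background on 4 or all 5 arrays.

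Of 23 macrophage and monocyte markers, 10 were higher and 1 lower at an unadjusted p under 0.05, with a median of 0.46. With 1 array left out at a time, 4 (without either female) to 14 (without tamoxifen male 1) were higher. Ccr2, the receptor that brings monocytes into tissue, stood at 8.98, 9.41, 10.31, 9.95 and 10.24 (difference 0.97 ± 0.20). Cd68, a lysosomal protein of macrophages, stood at 9.70, 10.06, 10.73, 10.60 and 11.06 (difference 0.88 ± 0.18). Both separate the groups in each sex. Tyrobp, an adaptor of myeloid receptors, differed by 0.98 ± 0.27 and Trem2 by 0.85 ± 0.33. The 1 lower member was Cd163 (-0.45), a marker of resident macrophages that was named after its value was seen. The list's mean level on tamoxifen male 1, 9.72, was close to those of the vehicle arrays (9.70 and 9.62), and those of the other tamoxifen arrays were 10.20 and 10.24.

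Chemokines and cytokines (28 genes, 9 higher and 0 lower at an unadjusted p under 0.05, median 0.70, or 0.50 with levels raised to background) included Cxcl2, at least 1.69-fold higher, and Il1b, an inflammatory cytokine, at 7.11, 6.75, 8.08, 7.69 and 9.63 (difference 1.51 ± 0.54). Of 17 complement and coagulation genes, 5 were higher, led among those separating the groups by Cfb (0.66 ± 0.15). All 14 antigen presentation genes had a positive difference and 6 were higher at an unadjusted p under 0.05, for example H2-Ab1 (0.68 ± 0.23) and Tap1 (0.65 ± 0.22), but 1 of 14 lay above vehicle on all tamoxifen arrays. Without the tamoxifen female, 1 gene was higher at an unadjusted p under 0.05 in place of 6. All 14 differences were also positive between the female arrays alone, with a median of 0.45. The list's mean level was 10.58 and 10.21 on the vehicle arrays, 10.40 on tamoxifen male 1, and 10.98 and 10.93 on the other tamoxifen arrays. Tamoxifen male 1 thus lay between the vehicle arrays. The median was 0.44 on all 5 arrays and 0.60 without tamoxifen male 1. What sets that array apart was not tested. Interferon response genes were uneven among the tamoxifen arrays. Of 19, 5 were higher and the median was 0.62, and their mean level was 8.83 and 8.45 on the vehicle arrays, 8.43 on tamoxifen male 1, and 9.50 and 9.56 on the other tamoxifen arrays. Mx1, an antiviral protein, stood at 6.23, 5.97, 7.63, 6.30 and 8.08, so tamoxifen male 1 lay with the vehicle arrays. Without that array 8 of the 19 interferon genes were called higher by limma, in a fit that called 236 of 18193 genes in either direction. The list's median was then 0.92, whereas without tamoxifen male 2 it was 0.35. Tamoxifen male 1 was singled out from these same values, so this is a description. Of 15 T, B and natural killer cell markers, 9 exceeded background on any array, and their median of 0.50 became 0.06 with levels raised to background.

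Growth factor genes differed in opposite directions. Igf1, the main local growth factor of loaded muscle, stood at 12.68, 12.70, 13.33, 13.43 and 13.50 (difference 0.72 ± 0.14, a 1.65-fold difference). The arrays of each group lie close together, and the 4 probe sets of the gene gave 0.72 to 0.97. Igf2, a growth factor of differentiating myoblasts, stood at 13.29, 13.56, 12.77, 12.18 and 12.35 (difference -0.96 ± 0.20), and its second probe set gave -0.92. Neither gene overlaps between the groups, and the sign is the same in both sexes. The binding protein Igfbp4 differed by 0.58 ± 0.15, and the insulin receptor substrate Irs2 stood at 7.83, 6.63, 5.42, 5.99 and 5.39 (difference -1.57 ± 0.47). Of the 14 genes in that list, 3 were higher and 3 lower at an unadjusted p under 0.05, and the median was 0.14.

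The list of Notch and Wnt genes held members in both directions, and its largest differences were positive. Sfrp2, a secreted Wnt-binding protein, stood at 8.37, 9.42, 10.00, 10.77 and 12.11 (difference 1.86 ± 0.35). Each tamoxifen array lies above both vehicle arrays, with male 2 well above the next. Dkk3 stood at 9.18, 8.18, 10.00, 9.75 and 10.26 (difference 1.40 ± 0.26), Rspo3, a Wnt-enhancing ligand, differed by 1.31 ± 0.36, and Sfrp1 by 1.11 ± 0.34. Of 27 Notch and Wnt genes, 9 were higher and 1 lower at an unadjusted p under 0.05, and the median was 0.27. On all tamoxifen arrays 13 lay above and 3 below vehicle (16.9% and 12.6% of all genes). Between the female arrays alone the median was 0.34. In the TGF-beta family list 6 of 26 were higher and 0 lower, with a median of 0.19, or 0.17 between the female arrays alone. Ltbp2, a matrix protein related to the latent TGF-beta binding proteins, differed by 1.67 ± 0.49, the activin subunit Inhba by 0.94 ± 0.38 and the TGF-beta-induced matrix protein Tgfbi by 0.66 ± 0.27.

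Cell cycle genes lay higher between the male arrays and level between the female arrays. Of 33, 1 was higher and 0 lower at an unadjusted p under 0.05. That gene, Ccnd2, a cyclin of the G1 phase, stood at 10.35, 9.41, 11.09, 10.38 and 11.03 (difference 1.06 ± 0.23). Tamoxifen male 1 lies just above the vehicle female there. The list's median was 0.28, with 0.00 between female arrays and 0.62 between male arrays, and was 0.08 without tamoxifen male 2, whose mean level of 9.01 was the highest (8.06 to 8.44 on the others). In the list of p53 targets and toxin-stress genes, 0 of 17 were higher and 2 lower, with a median of 0.06.

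Most genes of energy metabolism and calcium handling had small negative differences. All 27 oxidative phosphorylation genes had a negative difference and 22 lay below vehicle on every tamoxifen array (12.6% of all genes), but 0 reached an unadjusted p under 0.05 in limma. The median was -0.24, it was -0.11 after quantile normalization, and the largest difference, in the cytochrome oxidase subunit Cox7a1, was -0.36 ± 0.19. All 15 citric acid cycle genes had a negative difference as well and 3 were lower at an unadjusted p under 0.05 (Dlst -0.37 ± 0.15, Dld -0.36 ± 0.13 and Ogdh -0.36 ± 0.15). The coactivator of mitochondrial genes, Ppargc1a, stood at 9.92, 9.24, 9.11, 8.92 and 8.67 (difference -0.60 ± 0.18). Both male and female tamoxifen arrays lie below both vehicle arrays. The medians of fatty acid oxidation (19 genes) and of glycolysis and glycogen (17 genes) were -0.18 and -0.22, with 2 lower in each. Glycogen synthase, Gys1, differed by -0.61 ± 0.21, and a subunit of phosphorylase kinase, Phka1, by -0.52 ± 0.15. Of 14 calcium handling genes all had a negative difference, and Cacnb1, a subunit of the voltage sensor, stood at 11.72, 11.83, 11.28, 11.34 and 10.93 (difference -0.59 ± 0.17). The ubiquitin ligase Trim63, which marks fibre proteins for breakdown, differed by -0.55 ± 0.18, and 3 of 16 genes of ubiquitin ligases and autophagy were lower. The oxidative phosphorylation list orders the arrays inversely to the median signal: its mean levels were 13.89 and 13.85 on the vehicle arrays and 13.66, 13.74 and 13.47 on the tamoxifen arrays, lowest on tamoxifen male 2, the array of highest median signal. The part of that signal in the difference was not tested beyond the scaling alternatives.

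Centring each array on its median shifted the median of all genes from 0.03 to -0.12, and the share of positive differences from 52.8% to 38.5%. The medians of the matrix glycoprotein list (0.41), the neutrophil list (1.15) and the collagen list (0.21) stayed positive under that scaling, and those of the satellite cell (-0.55) and oxidative phosphorylation (-0.39) lists stayed negative. Some lists near 0 changed sign, such as insulin-like growth factors (-0.01) and p53 targets (-0.09). Quantile normalization moved lists in both directions, for example collagen chains to 0.44 and Notch and Wnt genes to 0.17.

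**Figure D5:**
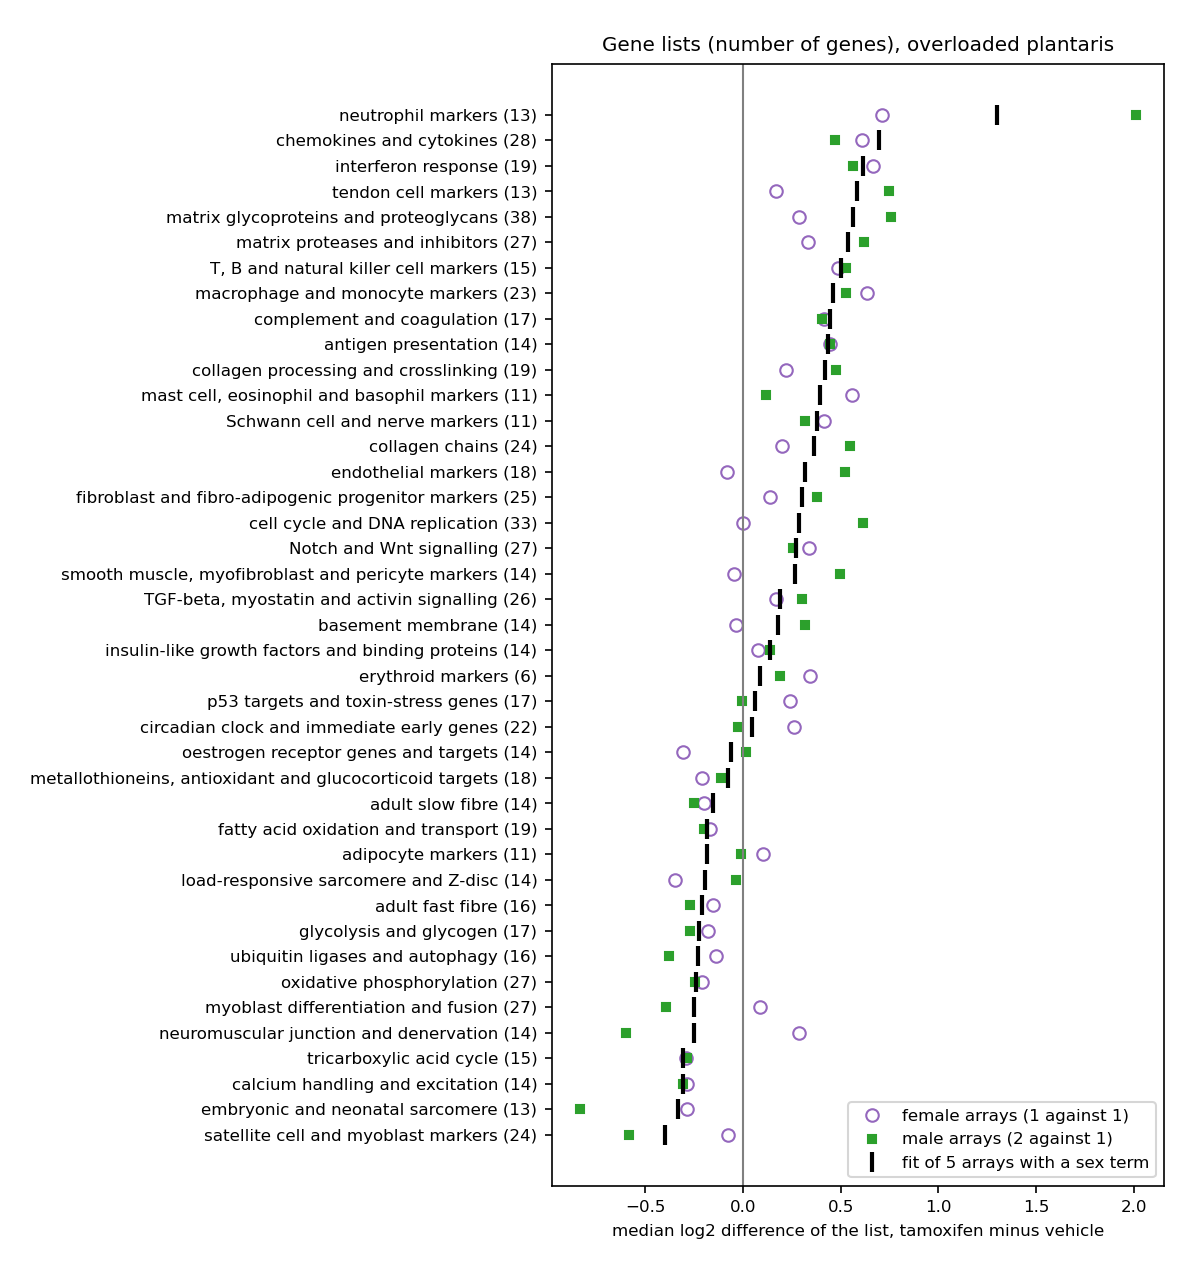
Median difference between tamoxifen and vehicle of each gene list (x axis, log2), with the number of measured genes in brackets, in the fit of 5 arrays (black bars), between the female arrays (circles) and between the male arrays (squares). Neutrophil, chemokine, collagen and matrix glycoprotein lists lie to the right in both sexes, oxidative phosphorylation and calcium handling to the left in both, and the myoblast, neuromuscular junction, cell cycle and endothelial lists lie apart by sex.

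Other cell types showed smaller or uneven differences. Of 18 endothelial markers, 15 had a positive difference, and 4 were higher and 0 lower at an unadjusted p under 0.05. Without the vehicle male, 7 were positive and 11 negative. The list's median was -0.08 between female and 0.52 between male arrays. Sox18 (0.47 ± 0.14) and Egfl7 (0.52 ± 0.18) lay higher. Prox1, the named member with the largest difference, lay the other way. It was below background on every tamoxifen array and at least 1.27-fold lower. Of 14 smooth muscle and pericyte markers, 10 had a positive and 4 a negative difference. By that p 3 were higher, led by Cnn1 (1.26 ± 0.50), which overlapped between the groups. All tamoxifen arrays lay above vehicle for 3 members and below it for 3, against 16.9% and 12.6% of all genes. The list's median was 0.27, with -0.045 between female and 0.50 between male arrays. Without the vehicle male, 3 were positive and 11 negative. In 11 Schwann cell and nerve markers, 4 were higher. Mbp, the myelin basic protein, stood at 10.26, 9.33, 11.66, 9.67 and 10.83 (difference 1.12 ± 0.32), with tamoxifen male 1 below the vehicle female. S100b separated the groups at 7.24, 6.64, 8.07, 7.41 and 8.02 (difference 0.97 ± 0.29). Of 11 mast cell, eosinophil and basophil markers, 0 were higher or lower by that rule, and 6 exceeded background on any array. Of 11 adipocyte markers, 5 had a positive and 6 a negative difference. Their median was -0.185, or 0.05 with levels raised to background. The 1 gene higher by that rule was Adipoq, at 10.12, 9.31, 11.29, 9.78 and 9.69 (difference 0.74 ± 0.19). Its female arrays stood above the males, and its groups overlapped. Erythroid markers (6 genes) had a median of 0.08, and 3 of them exceeded background on any array.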

How the data were processed

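RNA of plantaris muscle (1 µg) was labelled for Affymetrix mouse expression arrays. The authors deposited 1 linear intensity per probe set and array. Each array averages 500 once the lowest and highest 2% of its probe sets are set aside, as found from the values, so arrays were scaled as wholes. The submitters' processing notes name Partek without a role, and how probe sets were summarised is not stated in the labels. Signals were taken as log2(value + 1). Of 45101 probe sets, 64 controls, 932 with several gene symbols and 9160 with none were left out. The remaining 34945 gave 18193 genes, each by its probe set of highest mean over the 7 arrays. The background is the 95th percentile of 75 receptor genes' mean levels.

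Treatment and sex were fitted to the 5 arrays with limma 3.58.1 in R 4.3.3 (moderated variances with an intensity trend, 2 residual and 5.63 prior degrees of freedom, two-sided, Benjamini-Hochberg). An exact rank test of 3 against 2 arrays cannot go below a two-sided p = 0.2, and no permutation test was used. Members and the 42 gene lists (812 entries, 45 with no measured gene) were chosen with earlier results of these data known. Named genes were the leading 10 in each direction with groups that do not overlap, up to 5 members of each list with the largest differences, and a few fixed genes such as Pax7, Myod1 and Col1a1. Other genes are said to be chosen after their values were seen. The procedure was run on simulated data without a sex effect, where the check made was that known differences were returned on average. The share of true changes that it calls is not given here. Alternatives changed the sex term, the arrays, the scaling, the pseudocount (16), the filter, the fold minimum (1.5), the probe sets and the variance model. Promoters came from RefSeq (GRCm38.p6). Figures used Python 3.11.15 and matplotlib 3.10.9.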

Additional observations from a re-analysis of the deposited data

How the results depend on the processing

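The number of genes called higher was 1 and became 0 with no sex term, with male arrays alone, with all 7 arrays, after quantile normalization or median centring, with a pseudocount of 16, with genes above background on 2 arrays only, with every probe set or the mean of probe sets, without the intensity trend and in the ordinary linear model. Leaving out 1 array at a time gave 0 to 210 genes higher and 0 to 26 lower. Both upper values come from leaving out tamoxifen male 1, and the cause was not tested. With a fold minimum of 1.5 the count stayed at 1. The treatment-by-sex term called 0 genes after quantile normalization, with a pseudocount of 16 and without the intensity trend; without either tamoxifen male array no residual degrees of freedom remain, so it was not run. The adjusted p of Mmp13 was between 0.001 and 0.74 over these analyses. Leaving out either female array is nearly the same as male arrays alone, because the sex term then fits the female left over, and is no separate check. Leaving out the vehicle male likewise leaves only the difference between the female arrays, because the sex term then fits the tamoxifen males. No paired analysis was possible because the replicate numbers do not pair the arrays; sex was fitted as a block instead. The number of arrays limits every value.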

Other observations

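The sex term of the fit, which is no comparison of treatments, called 5 genes higher and 4 lower on the female arrays (limma, 0.0275% and 0.022% of 18193). Besides Xist and the Y-linked genes Eif2s3y, Kdm5d and Uty, these were the immediate early genes Fos, Nr4a1, Btg2 and Dusp1, which respond to stimuli within minutes, and Gbp2b. Fos stood at 13.14 and 13.93 on the vehicle and tamoxifen female arrays and at 10.43, 10.64 and 11.52 on the male arrays (female minus male 2.79, limma adjusted p = 0.0129). Nr4a1 stood at 12.70 and 12.30 on the female and 10.52 to 10.61 on the male arrays. These 4 genes were named after their values were seen. The tamoxifen female stood apart for Fosb, at 9.50 against 5.86 to 6.50 elsewhere, and was highest for Egr2 (9.50 against 7.45 to 8.12) and Junb (9.73 against 8.16 to 8.89).

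Of 14 oestrogen receptor genes and targets, read because tamoxifen binds the oestrogen receptor, 1 was higher and 0 lower at an unadjusted p under 0.05 and the median was -0.06. The receptor gene Esr1 stood at 10.60, 10.53, 10.25, 10.45 and 9.95 (difference -0.34 ± 0.18), and Cyp1b1, an enzyme of oestrogen breakdown, at 7.18, 8.06, 8.05, 8.47 and 9.12 (difference 0.79 ± 0.26). Across the 12446 genes above background on average, the female and the male differences had a Pearson r of 0.29 and a Spearman rho of 0.34, given as a description across genes that are not independent.

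Among the genes called without tamoxifen male 1, Gdpd3 had the smallest limma adjusted p, 3.12e-06, at a difference of 3.91 there and 2.92 on all 5 arrays. It was named after its value was seen.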
